A study of Brachypodium distachyon with 20 samples.

Results

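The YUC genes encode flavin monooxygenases that make the plant hormone auxin, and 9 of them were followed here through grain development of the grass Brachypodium distachyon. They were the 9 gene models listed as YUC members of the expression table, out of 23749 genes in all, and the list has no expression threshold. They were Bradi2g45105.2, Bradi5g01327.2 (YUC3), Bradi1g00587.3, Bradi2g10302.1, Bradi4g06427.1, Bradi4g40770.1, Bradi2g04240.3, Bradi2g48980.2 and Bradi1g49935.1. RNA-seq had been performed on 20 libraries of the inbred line Bd21, 2 in each of 10 groups. The groups were early endosperm (EEN), late endosperm (LEN), seed coat (SEC), and embryos at the two-cell to quadrant (TCQ), pro-embryo (PEM), transition (TRA), leaf early (LEE), leaf middle (LEM), leaf late (LEL) and mature (MAT) stages. EEN was sampled when the embryo was at TRA, and LEN and SEC when it was at LEL. All plants were of 1 genotype, untreated apart from emasculation and hand pollination, and each library was a pool of hand-dissected embryos or grains whose mRNA had been amplified before library preparation. The seed coat was what was left of the grain after dissection by hand. The labels name the embryo as taken out, and the methods name the endosperm as well. The study calls the libraries biological replicates, but no source states if they came from separate plantings. Every p-value therefore reflects how far apart the 2 libraries of a group lie, pooled for each gene over the 10 groups. A group without reads in both libraries has no spread and lowers this pooled spread.

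Auxin is made from tryptophan in a pathway of 2 enzymatic steps. Aminotransferases of the TAA/TAR family first make indole-3-pyruvate, and YUC enzymes then convert it to indole-3-acetic acid, the main natural auxin, in the step usually held to limit the rate. In Arabidopsis the YUC genes overlap in function and are expressed in small, separate domains, and embryos lacking several of them fail to form a normal body axis. In maize a YUC gene acts in the endosperm, where its loss gives small kernels.

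The values are those the authors deposited as log2 CPM, a name for read counts scaled to library size (CPM) on a log2 scale. A gene with no reads is not at 0 on this scale but at a lowest value of its own, which recurs exactly in every library without reads and is called its floor here. For 8 of the 9 YUC genes the spacing of the low values above the floor gave the number of whole reads behind each value. Bradi2g48980.2 had no such floor, so its reads are not known. The size of 1 read on the log2 CPM scale differs between genes, so a value is not set by reads and library size alone. In LEM replicate 1, 22 reads of Bradi4g06427.1 stood at -0.94 and 6 reads of Bradi1g49935.1 at 0.64. A cut at 0 log2 CPM thus stands for different numbers of reads, and no level is compared between genes below. The libraries differed in depth by up to 2.36-fold, and the endosperm and seed coat libraries were among the shallowest, at 0.661 to 0.851 of the mean depth, against 0.834 to 1.561 for the embryo libraries. Intervals given for ratios of reads are exact 95% intervals on the reads of the 2 libraries of a group added together. They cover counting error only and leave out the spread between the libraries. The reads carry no molecular identifiers, so copies made in amplification are counted as separate reads. The embryo gene PLT1, a root meristem regulator, averaged 2.58 to 5.53 log2 CPM in the embryo stages and was at its floor in all 6 EEN, LEN and SEC libraries. WOX9, an early embryo patterning gene, averaged 5.15 log2 CPM in EEN, 0.50 in LEN and -0.11 in SEC, against 1.13 to 10.66 in the embryo stages. STM, a shoot meristem gene, averaged 1.44 to 4.91 log2 CPM in the stages from TRA to MAT. It did not set the earliest embryos apart, at -2.09 in TCQ and -1.46 in PEM, against -2.36 in EEN, -0.74 in LEN and -1.43 in SEC. In such bulk samples fewer cells of a type and less RNA per cell cannot be told apart.

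By their highest group mean, 7 YUC genes were embryo forms, 2 were endosperm forms and 0 were seed coat forms. The embryo forms were Bradi2g45105.2 (highest in TCQ), Bradi5g01327.2 (TRA), Bradi1g49935.1 (LEE), Bradi1g00587.3 (LEM), and Bradi2g10302.1, Bradi4g06427.1 and Bradi2g48980.2 (LEL). The endosperm forms were Bradi4g40770.1 and Bradi2g04240.3, both highest in EEN. Of the 22902 genes tested, 55.6% were highest in an embryo stage, 23.7% in endosperm and 20.7% (4732 genes) in SEC. In the F-tests of limma, called at a Benjamini-Hochberg adjusted p under 0.05, 8 of the 9 YUC genes differed among the 10 groups, where 98.7% of all genes tested did, and 8 differed among the 7 embryo stages, where 93.3% did. Bradi1g49935.1 was the gene not called in both tests (adjusted p = 0.084 and 0.14), although it was called among the 10 groups without LEM replicate 2 (0.014), LEL replicate 1 (0.041) or LEL replicate 2 (0.037), or with library medians set equal (0.049), and among the stages without LEM replicate 2 (0.024). The call among stages ended for Bradi2g04240.3 without PEM replicate 1 or PEM replicate 2 (0.067 each), LEE replicate 1 (0.09) or LEE replicate 2 (0.12), and on log2(CPM + 1) (0.11). It ended for Bradi2g48980.2 without LEL replicate 1 (0.066) or LEL replicate 2 (0.06). The highest and the lowest group mean of a gene lay 1.24 to 10.68 log2 units apart. For 7 of the 9 this distance was above the median of 3.24 over all genes tested. Where the lowest group had no reads, the distance depends on the floor of the gene. This held for Bradi4g06427.1, Bradi2g04240.3, Bradi1g00587.3, Bradi1g49935.1, YUC3 and Bradi4g40770.1, whose distance of 10.68 was the largest. Of the 7 genes above the median, only Bradi2g45105.2 and Bradi2g10302.1 had reads in their lowest group.

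**Figure D1:**
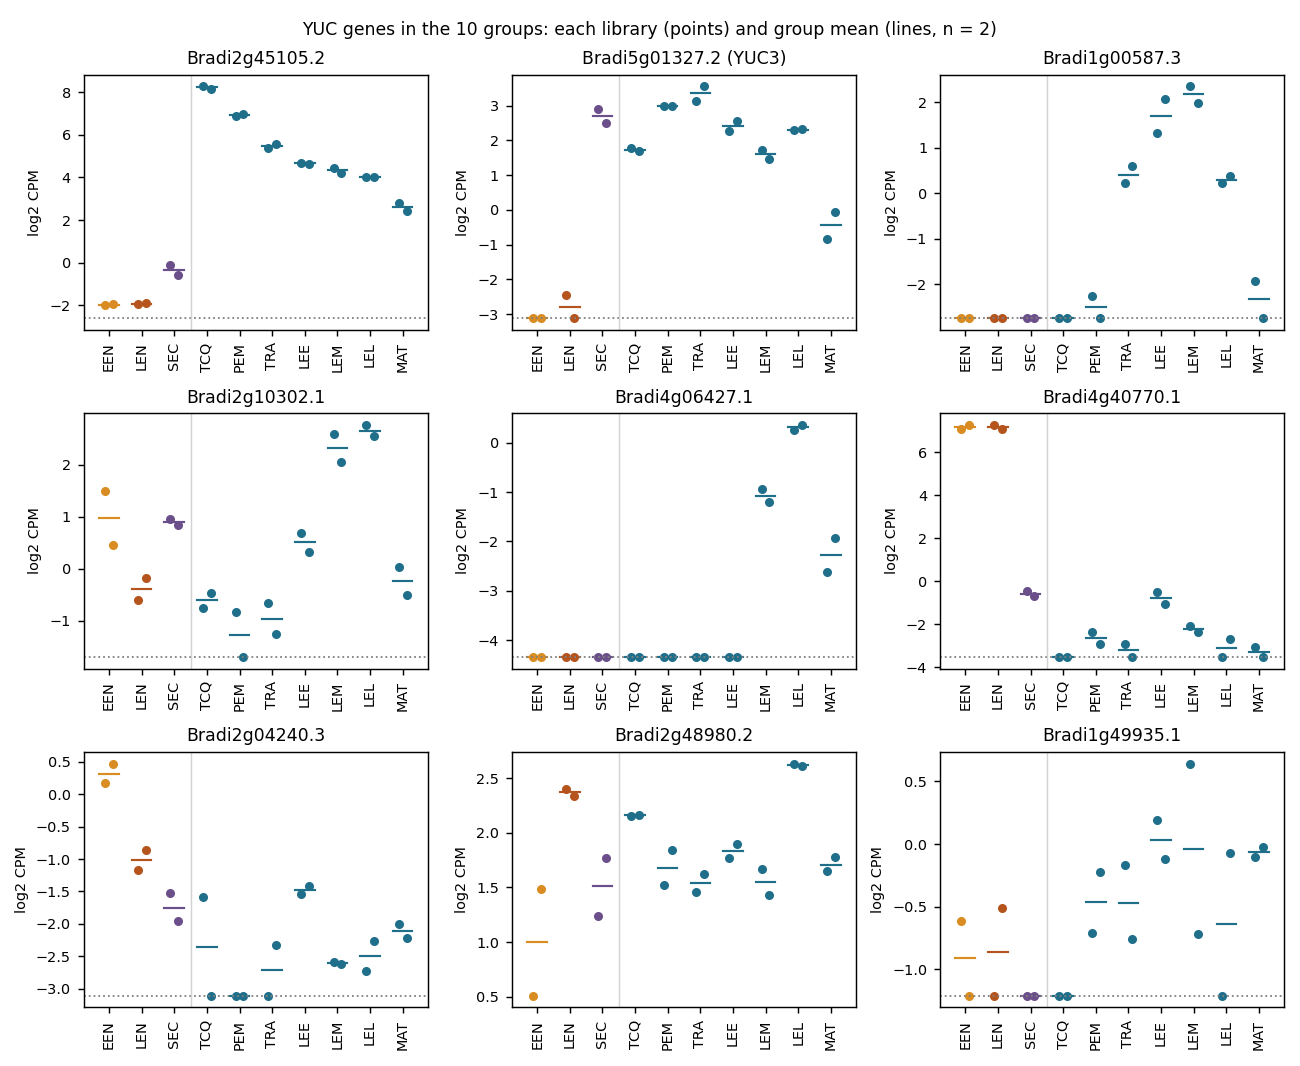
Deposited log2 CPM (vertical axes, each with its own scale) of the 9 YUC genes in EEN, LEN, SEC and the 7 embryo stages; points are the 2 libraries of a group, short lines their mean, and the dotted line is the floor of the gene. Bradi2g45105.2 is lower at each later stage, with means of 8.22 in TCQ and 2.63 in MAT, Bradi4g40770.1 is at 7.17 in both endosperm groups, and Bradi4g06427.1 leaves its floor only in LEM, LEL and MAT.

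Bradi2g45105.2 had its highest level at the first embryo stage sampled, and its level was lower at each later stage. Its values were 8.28 and 8.16 log2 CPM in TCQ, 6.87 and 6.98 in PEM, 5.38 and 5.58 in TRA, 4.67 and 4.65 in LEE, 4.43 and 4.22 in LEM, 4.01 and 4.01 in LEL, and 2.81 and 2.45 in MAT. No library of a stage reached the libraries of the stage before it. The fall was called by limma from TCQ to PEM (log2 difference -1.30, SE 0.16, adjusted p = 1.1e-05), from PEM to TRA (-1.44, SE 0.16, adjusted p = 1.2e-05), from TRA to LEE (-0.82, SE 0.16, adjusted p = 0.0026) and from LEL to MAT (-1.38, SE 0.16, adjusted p = 4.5e-06). The 2 steps between them, -0.34 from LEE to LEM and -0.31 from LEM to LEL, were not called (adjusted p = 0.096 and 0.15). MAT had 107 and 74 reads, against 3997 and 3825 in TCQ, a ratio at equal depth of 0.0205 (95% interval 0.0176 to 0.0237).

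Outside the embryo Bradi2g45105.2 was close to absent. EEN had -1.99 and -1.93 log2 CPM and LEN -1.94 and -1.88, which is 1 read in each of the 4 libraries. SEC had -0.09 and -0.57 log2 CPM, or 7 and 5 reads. All 6 libraries were below the lowest embryo library. At equal depth EEN had 0.00201 of the reads of TRA (95% interval 0.000243 to 0.00728), LEN 0.00623 of those of LEL (0.000752 to 0.0226) and SEC 0.0397 of those of LEL (0.0204 to 0.0699). The adjusted p of limma was 1.7e-14, 1.3e-13 and 2.0e-12 in these comparisons.

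YUC3 (Bradi5g01327.2) was expressed in the embryo and the seed coat and was nearly undetected in the endosperm. SEC had 2.89 and 2.49 log2 CPM (95 and 78 reads), while both EEN libraries and 1 LEN library had 0 reads and the other LEN library had 1. The embryo values were 1.78 and 1.68 log2 CPM in TCQ, 3.0 and 3.0 in PEM, 3.14 and 3.56 in TRA, 2.27 and 2.56 in LEE, 1.73 and 1.47 in LEM, 2.30 and 2.33 in LEL, and -0.83 and -0.06 in MAT. The gene thus had its highest values at PEM and TRA, a lower range from LEE to LEL and its lowest embryo values at MAT. The rise from TCQ to PEM was called (log2 difference 1.27, SE 0.28, limma adjusted p = 0.0014), as was the fall from LEL to MAT (-2.76, SE 0.28, adjusted p = 1.0e-06). The smaller falls from TRA to LEE (-0.94, adjusted p = 0.027) and from LEE to LEM (-0.81, adjusted p = 0.025) each rested on single libraries. For TRA to LEE the adjusted p was 0.20 with TRA replicate 2 left out, 0.17 with LEE replicate 1 left out and 0.057 with LEE replicate 2 left out. For LEE to LEM it was 0.15 with LEE replicate 2 left out and 0.14 with LEM replicate 2 left out.

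In the seed coat YUC3 was above the mean of the embryo stages by 0.70 log2 units (SE 0.21, limma adjusted p = 0.007), but it was not called against LEL, the stage of the same age (0.38, SE 0.28, adjusted p = 0.23). The call against the embryo mean ended without SEC replicate 1 (adjusted p = 0.14) and with all library medians set equal (adjusted p = 0.051). SEC lay between PEM and LEE in the order of groups and overlapped with LEE. EEN, with 0 reads, was at least 111-fold lower than TRA, taking 3 reads over the group as the upper limit of a count of 0. LEN, with 1 read, had 0.00714 of the reads of LEL at equal depth (95% interval 0.00018 to 0.0402).

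Bradi1g00587.3 was detected in the middle of embryo development. All 6 libraries of EEN, LEN and SEC had 0 reads. The embryo libraries had 0 and 0 reads in TCQ, 1 and 0 in PEM, 13 and 25 in TRA, 48 and 97 in LEE, 77 and 63 in LEM, 22 and 19 in LEL, and 2 and 0 in MAT. On the log2 CPM scale the values were 0.22 and 0.60 in TRA, 1.32 and 2.07 in LEE, 2.35 and 1.99 in LEM, and 0.23 and 0.37 in LEL, with a floor of -2.74. The gene rose from PEM to TRA (limma adjusted p = 7.4e-06), fell from LEM to LEL (log2 difference -1.87, SE 0.31, adjusted p = 2.3e-04) and fell again to MAT (adjusted p = 4.5e-06), where the reads were 0.0564 of those in LEL at equal depth (95% interval 0.0066 to 0.217). LEE was above TRA by 1.28 log2 units (SE 0.31, adjusted p = 0.0087), a call that ended without TRA replicate 1 (adjusted p = 0.08) or LEE replicate 2 (0.10). Against LEM, EEN was at least 35.9-fold lower, LEN at least 32.8-fold lower and SEC at least 30.8-fold lower.

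Bradi2g10302.1 peaked late in the embryo and was also measured in early endosperm and seed coat. EEN had 16 and 6 reads, LEN 2 and 3, and SEC 8 and 8. The embryo libraries had 2 and 3 reads in TCQ, 2 and 0 in PEM, 2 and 1 in TRA, 13 and 11 in LEE, 43 and 31 in LEM, 68 and 45 in LEL, and 6 and 3 in MAT. LEM and LEL, at 2.06 to 2.77 log2 CPM, were above all other libraries, and the next group means were those of EEN (libraries at 1.5 and 0.46) and SEC (0.95 and 0.85). The gene rose from LEE to LEM (log2 difference 1.82, SE 0.38, limma adjusted p = 9.0e-04) and fell from LEL to MAT (-2.90, SE 0.38, adjusted p = 1.1e-05). The step from TRA to LEE (1.47, SE 0.38, adjusted p = 0.012) was not called without TRA replicate 2 (0.12) or LEE replicate 1 (0.098).

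The direction of the difference between endosperm and embryo turned with time for Bradi2g10302.1. EEN was above TRA by 1.94 log2 units (SE 0.38, limma adjusted p = 2.6e-04), with 9.24 times its reads at equal depth (95% interval 2.78 to 48.2). LEN was below LEL by 3.05 log2 units (SE 0.38, adjusted p = 2.4e-06), with 0.0752 of its reads (0.024 to 0.181). SEC was also below LEL (-1.76, SE 0.38, adjusted p = 5.3e-04). Within the endosperm LEN was below EEN (-1.37, SE 0.38, adjusted p = 0.005), but not past the threshold without EEN replicate 1 (adjusted p = 0.089), the library with 16 reads.

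Bradi4g06427.1 was detected in late embryos only, among these 20 libraries. It had 22 and 19 reads in LEM, 74 and 62 in LEL, and 6 and 10 in MAT, and 0 reads in the 14 libraries of EEN, LEN, SEC, TCQ, PEM, TRA and LEE. The values were -0.94 and -1.21 log2 CPM in LEM, 0.25 and 0.36 in LEL, and -2.61 and -1.94 in MAT, with a floor of -4.34. The 3 late groups did not overlap. LEM was at least 19.0-fold above LEE (limma adjusted p = 1.6e-08). LEL was above LEM by 1.38 log2 units (SE 0.21, limma adjusted p = 1.0e-04), and MAT was below LEL by 2.58 (SE 0.21, adjusted p = 9.2e-08). The groups with 0 reads had no spread and lowered the pooled spread of this gene, so these p-values depend in part on the floor. The gene also passed the filter through LEL alone, whose 2 libraries were the only ones above 0 log2 CPM. LEN was at least 26.7-fold lower than LEL and SEC at least 25.1-fold lower.

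**Figure D2:**
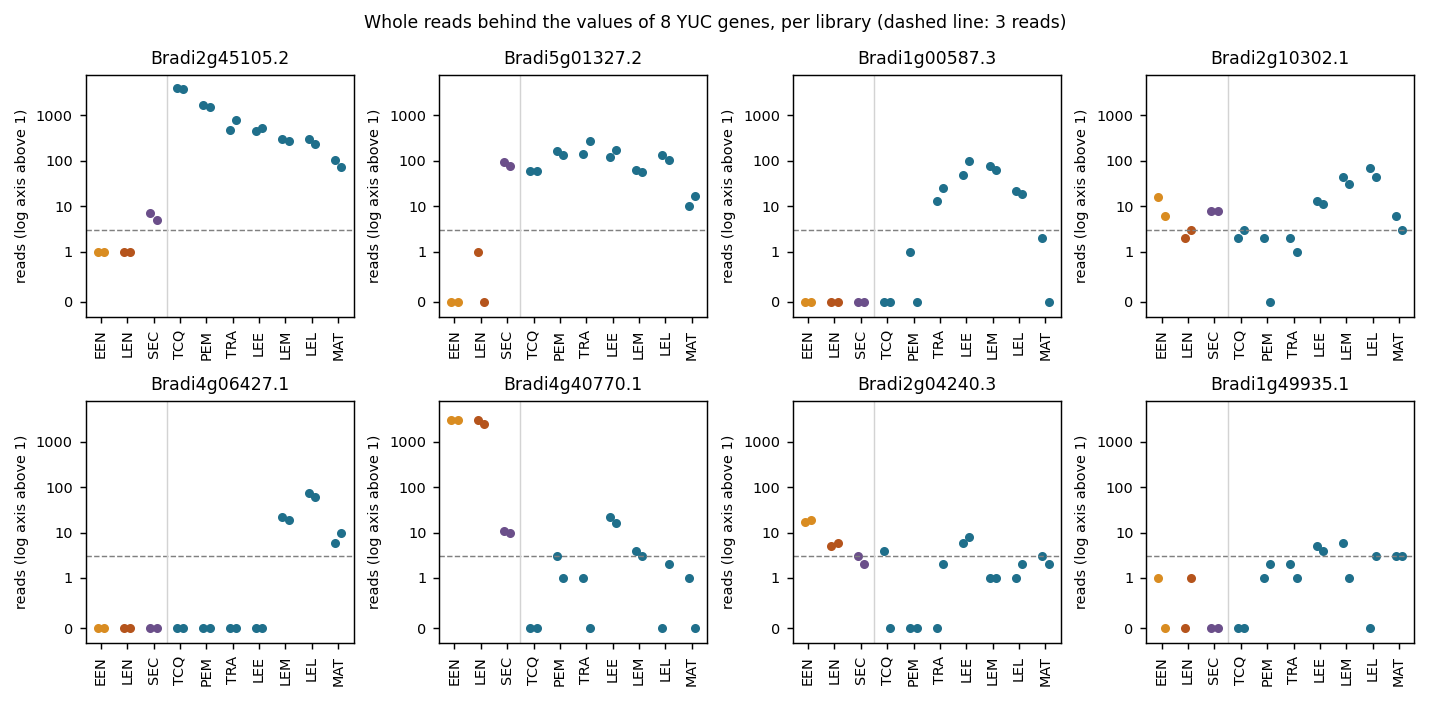
Whole reads recovered for 8 YUC genes (vertical axes, log scale above 1 read) in EEN, LEN, SEC and the 7 embryo stages; each point is a library and the dashed line marks 3 reads. Bradi4g40770.1 has 2460 to 3038 reads in the 4 endosperm libraries and at most 22 in any other, while Bradi1g49935.1 never passes 6.

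Bradi4g40770.1 was high in both endosperm groups and low in all other groups. EEN had 7.07 and 7.27 log2 CPM (2968 and 3038 reads) and LEN had 7.25 and 7.09 (3034 and 2460 reads). The embryo libraries had 0 to 4 reads in every stage but LEE, which had 22 and 16, and SEC had 11 and 10. EEN and LEN overlapped, and their reads at equal depth had a ratio of 1.00 (95% interval 0.967 to 1.04). EEN was above the embryo mean by 9.84 log2 units (SE 0.25, limma adjusted p = 3.0e-14) and LEN by 9.83 (SE 0.25, adjusted p = 2.0e-14). Most embryo stages lay near the floor of -3.51 log2 CPM, so these differences depend on it and are no measure of the fold. EEN had 6006 reads, against 38 in LEE, the embryo stage with the most, a ratio at equal depth of 285 (95% interval 207 to 403).

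Within the embryo the level of Bradi4g40770.1 rose from TRA to LEE (log2 difference 2.44, SE 0.33, limma adjusted p = 1.5e-04) and fell from LEE to LEM (-1.45, SE 0.33, adjusted p = 0.002). SEC was above LEL by 2.51 log2 units (SE 0.33, adjusted p = 4.6e-06) and at 0.00406 of LEN in reads (95% interval 0.00251 to 0.00622). Endosperm left on a dissected embryo or seed coat would carry reads of this gene, so its level was set beside those of the other genes abundant in endosperm. In the 2 LEE libraries Bradi4g40770.1 was at 0.499% and 0.334% of its EEN level, while the 50th lowest of the 3119 genes of at least 6 log2 CPM in EEN was at 0.499% and 0.508%. In SEC it was at 0.505% and 0.431%, and the 50th lowest gene at 0.757% and 0.631%. Relative to LEN, where 3145 genes reached 6 log2 CPM, Bradi4g40770.1 was at 0.501% and 0.335% in LEE and the 50th lowest gene at 0.0979% and 0.10%. In SEC these values were 0.507% and 0.433% for Bradi4g40770.1 and 0.0578% and 0.101% for the 50th lowest gene. Relative to EEN its LEE and SEC levels were thus no higher than those of the genes least detected there, and relative to LEN they were higher. The part of carried endosperm in these reads was not tested.

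**Figure D3:**
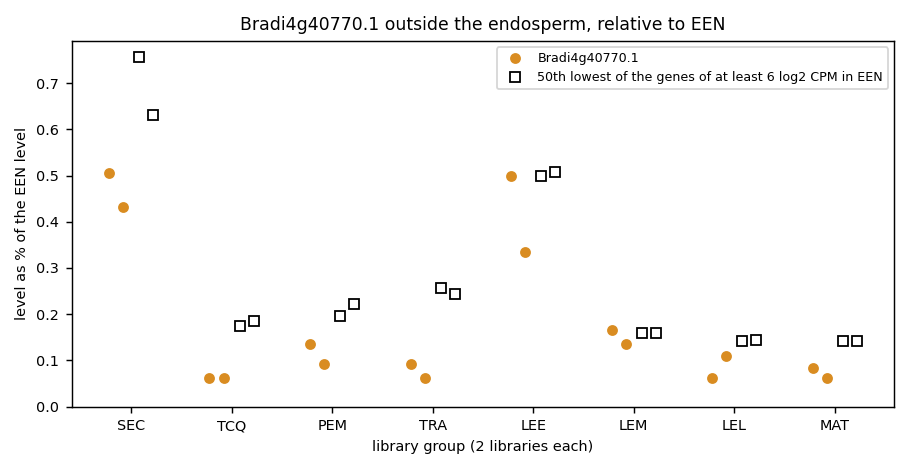
Level of Bradi4g40770.1 in each seed coat and embryo library as a percentage of its mean level in EEN (filled circles), beside the 50th lowest such percentage among 3119 genes of at least 6 log2 CPM in EEN (open squares); values are antilogs of the deposited log2 CPM, so libraries with 0 reads stand at 0.0609%. In LEE and SEC both measures are higher than in the other groups.

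Bradi2g04240.3, the other endosperm form, was low in all libraries. EEN had 17 and 19 reads, LEN 5 and 6, SEC 3 and 2, and LEE 6 and 8, and no other embryo library had more than 4. On the log2 CPM scale EEN was at 0.17 and 0.47, LEN at -1.17 and -0.86, SEC at -1.53 and -1.96, and LEE at -1.54 and -1.41. The 2 EEN libraries were above all others. They were also the only ones above 0 log2 CPM, so the gene passed the filter through EEN alone. Its comparisons with EEN are therefore not independent of the filter. EEN was above TRA (log2 difference 3.04, SE 0.39, limma adjusted p = 4.6e-06), with 22.7 times its reads at equal depth (95% interval 5.84 to 195), and LEN was above LEL (1.48, SE 0.39, adjusted p = 0.0032; 6.23 times the reads, 1.65 to 34.8). LEN was below EEN (-1.34, SE 0.39, adjusted p = 0.0079), at adjusted p = 0.056 without LEN replicate 1 and 0.05 without EEN replicate 2. LEE had 0.216 of the reads of EEN (95% interval 0.107 to 0.41), a larger fraction than that of Bradi4g40770.1. Its differences between LEE and the neighbouring stages rested on these few reads: LEE against TRA (1.24, adjusted p = 0.036) was not called without TRA replicate 1 (0.27), LEE replicate 1 (0.11) or LEE replicate 2 (0.13), or on log2(CPM + 1) (0.07), and the largest adjusted p for LEM against LEE (-1.13, adjusted p = 0.026) was 0.11, without LEE replicate 2, with 0.066 without LEE replicate 1, 0.074 without LEM replicate 1 and 0.091 without LEM replicate 2.

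Bradi2g48980.2 was the YUC gene above 0 log2 CPM in all 20 libraries, and its highest and lowest group means were 1.62 log2 units apart. EEN had 0.51 and 1.49 log2 CPM, LEN 2.40 and 2.34, and SEC 1.24 and 1.77. The embryo values were 2.15 and 2.16 in TCQ, 1.52 and 1.84 in PEM, 1.46 and 1.62 in TRA, 1.77 and 1.90 in LEE, 1.67 and 1.43 in LEM, 2.63 and 2.61 in LEL, and 1.65 and 1.78 in MAT. LEL, LEN and TCQ, in that order, stood apart from each other and from all other groups, and those groups overlapped with their neighbours in the order. The gene rose from LEM to LEL (log2 difference 1.07, SE 0.27, limma adjusted p = 0.005). MAT was below LEL (-0.91, SE 0.27, adjusted p = 0.0096), which was not called with library medians set equal (adjusted p = 0.052) or without MAT replicate 1 (0.055). SEC was below LEL (-1.11, SE 0.27, adjusted p = 0.0013) and LEN was above EEN (1.37, SE 0.27, adjusted p = 3.4e-04). The difference between EEN and the embryo mean (-0.87, SE 0.20, adjusted p = 0.001) rested on EEN replicate 1, the lower library (adjusted p = 0.11 without it), and LEN was above the embryo mean by 0.50 (SE 0.20, adjusted p = 0.032), at adjusted p = 0.15 without LEN replicate 1 and 0.10 without LEN replicate 2.

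Bradi1g49935.1 was near the limit of detection throughout. Its highest library, LEM replicate 1, had 6 reads, 7 libraries had 0, and all 20 had 33 reads together. The group means ran from -1.21 log2 CPM, its floor, in TCQ and SEC, to 0.03 in LEE. Of its 10 groups in order of level, MAT and PEM were the only neighbours whose libraries did not overlap. SEC was below the embryo mean by 0.80 log2 units (SE 0.33, limma adjusted p = 0.037), with 0 reads in both SEC libraries, and without SEC replicate 1 or SEC replicate 2 the adjusted p was 0.14, and it was 0.052 without PEM replicate 2, TRA replicate 1 or LEE replicate 1. Late against early embryos was not called for this gene (0.28, SE 0.24, adjusted p = 0.28) except without LEM replicate 2 (adjusted p = 0.048).

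Between successive embryo stages, YUC genes moved in both directions in every step but the last, at which all those called in limma fell. From TCQ to PEM 2 rose and 1 fell, where 53.3% of all genes tested were called in either direction, and from PEM to TRA 1 rose and 1 fell, where 29.3% were called. The gene beside YUC3 that rose to PEM was Bradi4g40770.1, at 3 and 1 reads in PEM and 0 in both TCQ libraries (adjusted p = 0.038), and this call ended without TCQ replicate 1 or TCQ replicate 2 (0.11 each) or PEM replicate 1 (0.26), with library medians set equal (0.057) and on log2(CPM + 1) (0.51). From TRA to LEE 4 rose (Bradi1g00587.3, Bradi2g10302.1, Bradi4g40770.1 and Bradi2g04240.3) and 2 fell (Bradi2g45105.2 and YUC3), where 21.9% of all genes were called. This count of 6 was 3 without LEE replicate 1 and 3 without LEE replicate 2. From LEE to LEM 2 rose (Bradi2g10302.1 and Bradi4g06427.1) and 3 fell (Bradi4g40770.1, Bradi2g04240.3 and YUC3), where 51.9% were called. The count of 5 was 3 without LEE replicate 2 or LEM replicate 2. The endosperm forms Bradi4g40770.1 and Bradi2g04240.3 thus rose to LEE and fell after it. The 50th lowest gene relative to EEN was at 0.257% and 0.243% in TRA, 0.499% and 0.508% in LEE, and 0.159% and 0.16% in LEM. The part of carried endosperm in these changes was not tested. From LEM to LEL 2 rose (Bradi4g06427.1 and Bradi2g48980.2) and 1 fell (Bradi1g00587.3), where 37.1% were called.

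From LEL to MAT 6 YUC genes fell and 0 rose, where 52.5% of all genes tested were called. The 6 were Bradi2g45105.2, YUC3, Bradi1g00587.3, Bradi2g10302.1, Bradi4g06427.1 and Bradi2g48980.2. Of these, Bradi2g10302.1, Bradi4g06427.1 and Bradi2g48980.2 had their highest group mean in LEL, so for them MAT could only be lower. The median log2 difference of the 9 YUC genes was -1.38, beside -0.01 over all genes tested. The 3 genes not called were those with at most 3 reads in any library of either stage. The log2 differences of the 6 called ran from -0.91 for Bradi2g48980.2 to -2.90 for Bradi2g10302.1, and those of the 3 not called were -0.19 for Bradi4g40770.1, 0.38 for Bradi2g04240.3 and 0.58 for Bradi1g49935.1.

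Set against the mean of the early stages (TCQ, PEM, TRA and LEE), the mean of the late stages (LEM, LEL and MAT) was higher for 3 YUC genes and lower for 2 of the 9, where 83.1% of all genes tested were called. The higher ones were Bradi2g10302.1 by 2.16 log2 units (SE 0.20, limma adjusted p = 6.3e-08), Bradi1g00587.3 by 0.83 (SE 0.17, adjusted p = 2.8e-04), and Bradi4g06427.1 (adjusted p = 3.2e-13). Bradi4g06427.1 had 0 reads in the early stages, and these groups without spread lowered the pooled spread behind its p-value. The difference of Bradi1g00587.3 also depends on its floor, since its TCQ, PEM and MAT libraries had 0 to 2 reads, and it was 0.36 on log2(CPM + 1). This gene peaked in the middle, with means of 1.70 in LEE, counted as early, and 2.17 in LEM, counted as late. The lower ones were Bradi2g45105.2 (-2.67, SE 0.09, adjusted p = 2.4e-13) and YUC3 (-1.47, SE 0.15, adjusted p = 2.1e-07). The median over the 9 YUC genes was 0.16, beside -0.05 over all genes tested.

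Each non-embryo tissue was compared with the mean of the 7 stages, each stage weighing the same, and with the stage of the same age, and these comparisons share libraries. Against the embryo mean, EEN was higher for 2 YUC genes and lower for 5, where 75.3% of all genes tested were called. LEN was higher for 3 and lower for 5 (80.3% of all genes), and SEC was higher for 2 and lower for 4 (80.5%). The median log2 difference of the YUC genes was -0.87 in EEN, -0.74 in LEN and -0.36 in SEC, beside -0.04, -0.03 and -0.01 over all genes tested. Bradi4g40770.1 was higher in all of EEN, LEN and SEC, and Bradi2g45105.2, Bradi1g00587.3 and Bradi4g06427.1 were lower in all of them. YUC3 was lower in EEN and LEN (-5.10, SE 0.21, adjusted p = 6.2e-12 and -4.78, SE 0.21, adjusted p = 9.2e-12), fitted differences that rest on a floor and are no measure of the fold. For Bradi2g10302.1 LEN was below the embryo mean by 0.74 (adjusted p = 0.027), a call that ended without LEN replicate 1 (0.25).

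**Figure D4:**
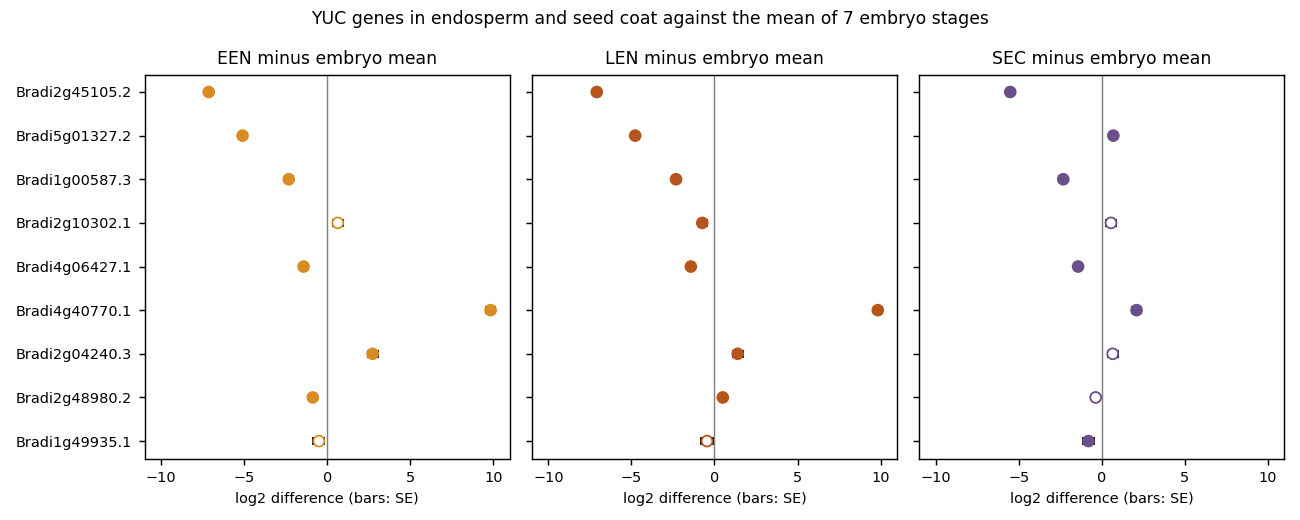
Log2 difference (horizontal axes) of EEN, LEN and SEC from the mean of the 7 embryo stages for the 9 YUC genes; bars are standard errors of the limma fit, many smaller than the symbols, and filled symbols are called at adjusted p under 0.05. Bradi4g40770.1 is 9.84 higher in EEN and 9.83 higher in LEN, differences that depend on embryo values near its floor. Bradi2g45105.2 is lower in all 3 tissues.

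At matched age, EEN was higher than TRA for 3 YUC genes (Bradi4g40770.1, Bradi2g04240.3 and Bradi2g10302.1) and lower for 3 (Bradi2g45105.2, YUC3 and Bradi1g00587.3), where 71.4% of all genes tested were called. LEN was higher than LEL for 2 (Bradi4g40770.1 and Bradi2g04240.3) and lower for 5 (73.9% of all genes), the 3 genes lower in EEN together with Bradi2g10302.1 and Bradi4g06427.1. SEC was higher than LEL for Bradi4g40770.1 alone and lower for 5 (76.7% of all genes), namely Bradi2g45105.2, Bradi1g00587.3, Bradi2g10302.1, Bradi4g06427.1 and Bradi2g48980.2. The YUC median was -0.44 for EEN against TRA, -3.04 for LEN against LEL and -1.11 for SEC against LEL, beside -0.04, 0.00 and -0.02 over all genes tested. Between the endosperm ages, LEN was higher than EEN for Bradi2g48980.2 and lower for Bradi2g10302.1 and Bradi2g04240.3, where 62.1% of all genes tested were called.

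The change over the same time in endosperm (LEN minus EEN) and embryo (LEL minus TRA) differed for 5 of the 9 YUC genes, where 62.5% of all genes tested were called. Relative to the embryo change, the endosperm change was higher for Bradi2g45105.2 and YUC3 and lower for Bradi2g10302.1, Bradi4g06427.1 and Bradi2g04240.3. For Bradi2g45105.2, YUC3 and Bradi4g06427.1 each endosperm library had 0 or 1 read, so the difference rests mainly on the embryo change. For Bradi2g10302.1 the endosperm change was -1.37 and the embryo change 3.62, of opposite sign, and the difference between them was -4.99 (SE 0.53, limma adjusted p = 1.2e-06). For Bradi4g40770.1 the difference was -0.13 (SE 0.47, adjusted p = 0.83).

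Across the 10 group means, the YUC genes were alike in few pairs. Of 36 pairs, 4 had a Pearson correlation above 0.5 and 4 below -0.5, given as a description over 10 groups that share libraries for every gene. The endosperm forms Bradi4g40770.1 and Bradi2g04240.3 had r = 0.88, the late embryo forms Bradi2g10302.1 and Bradi4g06427.1 had 0.75, the early forms Bradi2g45105.2 and YUC3 had 0.74, and Bradi1g00587.3 and Bradi1g49935.1 had 0.69. The most negative pairs set the endosperm forms against the early embryo forms, at -0.84 for Bradi4g40770.1 with YUC3 and -0.83 with Bradi2g45105.2. The forms were named from these same group means, so the correlations are no separate support for them. Bradi1g49935.1 had at most 6 reads in a library, and Bradi4g06427.1 had 0 reads in 14 libraries.

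Among the 16915 genes tested that reached 3 log2 CPM in a group, those most like each YUC gene over the 10 group means carry no name in the files. For Bradi4g40770.1 they were Bradi1g18476.1 (r = 0.996) and Bradi2g03448.1 (0.995), and 177 genes had r above 0.95. For Bradi2g45105.2 they were Bradi3g12750.2 (0.985) and Bradi3g51540.1 (0.984), with 39 such genes, and for YUC3 Bradi2g54510.2 (0.983) and Bradi4g05410.1 (0.978), with 22. For Bradi1g00587.3 they were Bradi3g39150.1 (0.987) and Bradi2g48580.1 (0.983), for Bradi2g10302.1 Bradi3g20880.2 (0.960) and Bradi4g18210.1 (0.956), and for Bradi4g06427.1 Bradi3g25226.2 (0.956) and Bradi2g51130.1 (0.943). For Bradi2g04240.3 they were Bradi4g09822.1 (0.952) and Bradi4g45222.2 (0.940), for Bradi1g49935.1 Bradi5g08637.1 (0.936) and Bradi1g78550.1 (0.927), and for Bradi2g48980.2 Bradi3g44867.1 (0.882) and Bradi1g34240.1 (0.844).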

How the data were processed

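Grains of Bd21 were dissected by hand, and the mRNA was amplified to antisense RNA for all groups. The authors quantified reads against the JGI gene models of Bd21 using Salmon 0.13.0. The submitters' processing notes also name CASAVA and Trimmomatic. The authors deposited log2 CPM values, and the tool that made them is not given in the sources used here. Whole reads were recovered from the deposited log2 values as multiples of the step above a floor shared by at least 3 libraries. Such floors were found for 3862 genes and ran from -6.53 to 2.74, and 93.0% to 96.2% of values under 100 reads were whole within 0.05. For Bradi2g45105.2 and Bradi2g10302.1 the floor was fitted. Salmon divides reads between near-identical copies, so reads are estimates. No count test was run, since reads were recovered for a minority of genes.

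Testing used limma 3.58.1 (R 4.3.3) with a mean per group, a variance trend, 10 residual and 4.82 prior degrees of freedom, and Benjamini-Hochberg adjustment over all genes tested in each comparison. Of all genes, 22902 exceeded 0 log2 CPM in 2 or more libraries and were tested, and 847 were not. All 9 YUC genes passed, 3 of them in exactly 2 libraries (Bradi4g06427.1 in LEL, Bradi2g04240.3 in EEN, and Bradi1g49935.1 in 1 library each of LEE and LEM). Library medians ran from 2.71 to 3.15. A fold against a group with 0 reads is a lower bound with 3 reads over the group. The procedure was tested on simulated data. Alternatives were equal library medians, other filters, log2(CPM + 1), no variance trend, a replicate block, and leaving out each library. All 9 genes were named, and the 2 genes most like each by correlation. The 9 genes are a family list with no measured value in its rule, but the family and the lists were picked for description with earlier results of these data known. Reference tables matched 0 identifiers, so other auxin pathway genes, sequences and endosperm or seed coat marker lists were not analysed here.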

Additional observations from a re-analysis of the deposited data

Results flagged for a closer look

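The change from the earlier to the later age in endosperm (LEN minus EEN) differed from that in embryo (LEL minus TRA) for 5 of the 9 YUC genes. By this interaction term of limma, 62.5% of all genes tested were called. The difference was 1.51 log2 units for Bradi2g45105.2 (endosperm 0.05, embryo -1.47, adjusted p = 4.2e-05), -4.99 for Bradi2g10302.1 (-1.37 and 3.62, adjusted p = 1.2e-06) and 1.36 for Bradi5g01327.2 (0.32 and -1.04, adjusted p = 0.0077). It was -4.64 for Bradi4g06427.1 (0.00 and 4.64, adjusted p = 5.7e-09), whose endosperm libraries had 0 reads, so that only the embryo changed measurably. It was -1.56 for Bradi2g04240.3 (-1.34 and 0.22, adjusted p = 0.023), and this call ended without TRA replicate 1 (adjusted p = 0.11), LEL replicate 2 (0.087), EEN replicate 2 (0.069) or LEN replicate 1 (0.072). For Bradi2g45105.2 and Bradi5g01327.2 the endosperm values rest on 0 or 1 read per library.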

How the results depend on the processing

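The 153 verdicts (9 YUC genes in 17 comparisons) were taken again under each alternative, except that the filter at 1 log2 CPM left 102 of them, and 0 were reversed. They were unchanged in 145 cases with library medians set equal, 153 without a filter, 147 on log2(CPM + 1), 151 without a variance trend, and 147 to 152 when 1 library was left out. When a gene had to exceed 1 log2 CPM in 2 or more libraries, 6 YUC genes could be tested, 1 of the 102 verdicts changed, and the number called was 3 for LEM against LEE and 3 for the tissue by time interaction, in each case against 5 of 9. Without a variance trend 5 were called for LEL against LEM, against 3. When 1 library was left out, the number called ran from 3 to 6 for LEE against TRA and from 3 to 5 for LEM against LEE. The cause of these changes was not tested, apart from the smaller number of genes tested and of libraries. The main fit did not pair libraries by replicate number. The correlation of same-numbered deviations ran from -0.125 to 0.549 over 45 pairs of groups (median 0.046, 15 over 0.1). Whether same-numbered libraries of some groups belong together was not tested further. A replicate block lost 0 calls and added 3: Bradi4g40770.1 in LEL against LEM (adjusted p = 0.047), and Bradi2g10302.1 in EEN (0.029) and SEC (0.049) against the embryo mean. Depth limits most the genes of few reads, Bradi1g49935.1, Bradi2g04240.3 and Bradi4g40770.1 outside the endosperm.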
